A study of Mus musculus with 10 samples.

Results

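The proteasome genes of the array were taken as every probe set that the platform annotation gives 1 gene symbol beginning with Psma, Psmb, Psmc, Psmd, Psme, Psmf or Psmg and a number. This gave 103 probe sets of 49 genes, out of 34945 probe sets of 18193 genes with 1 symbol. The brightest probe set on average over the 10 arrays stood for each gene. Of the 49 genes, 47 encode proteasome subunits, activators, an inhibitor or assembly chaperones, and 2 were found by their symbol alone: Psmc3ip, a recombination factor, and Psme3ip1, which encodes a binding partner of the Psme3 product. No probe set listed Psme2 alone, so that gene is not analysed here.

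The arrays measured RNA of mouse blood stem and progenitor cells transduced with a retroviral vector for EGFP and the homeobox gene HOXB4. In HOXB4-ER (HOXB4ERT in the sample titles) the protein is fused to an oestrogen receptor domain and is active in the nucleus while 4-hydroxytamoxifen (TMX) is present, and HOXB4const is the unmodified, constantly active protein, used to control for TMX itself. All cells were expanded for 14 days with 10 nM TMX and cytokines, sorted as LSK cells (GFP+, lineage negative, Sca1+, c-kit+) and cultured for 12 h more with TMX, then each population was divided. The arrays form 5 groups of 2, numbered replicates 1 and 2. HOXB4-ER cells had been left with TMX (1 h) or deprived of it for 1 h or 4 h, and HOXB4const cells had been left with TMX or deprived of it for 1 h. No array of 4 h with TMX, or of HOXB4const at 4 h, was used here, so in the 4 h comparison time in culture and withdrawal cannot be told apart. The sources used here give neither mouse strain nor age nor what a replicate number shares, and p-values measure only the spread between these arrays.

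The proteasome is the cell's main protease for ubiquitin-tagged proteins. Its core particle is a barrel of stacked rings: alpha subunits (Psma genes) form the outer rings and gate the entrance, and beta subunits (Psmb genes) form the inner rings, where Psmb5, Psmb6 and Psmb7 encode the constitutive proteolytic subunits. The regulatory particle caps the barrel. Its ATPases (Psmc genes) unfold the substrate and feed it in, and some of its other subunits (Psmd genes) bind ubiquitin or, for Psmd14, cut it off. Psmd5, Psmd9 and Psmd10 encode assembly chaperones instead. In immune cells and under interferon gamma, Psmb8, Psmb9 and Psmb10 take the places of Psmb5, Psmb6 and Psmb7 in the immunoproteasome, and Psme1 with Psme2 forms an activator cap. Both change the peptides available to MHC class I. Blood cells commonly carry immunoproteasomes without stimulation.

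Signals are given on the log2 scale as deposited, where a difference of 1 is 2-fold. Nearly all the proteasome genes were bright. Of the 49, 47 had a mean signal above 4.05, the median of all probe sets, and 43 were in the brightest 25% of genes. The 2 below the median were the tissue-restricted core genes: Psma8, a testis subunit (mean 3.27), and Psmb11, a thymus subunit (mean 1.76). Among the other 45 subunit, activator and chaperone genes the lowest mean was 7.18, for the inhibitor gene Psmf1. These 45 varied little. The median SD within groups was 0.288, against 0.337 for the 4549 genes in the brightest 25% and 0.674 for all genes, and the median range over the 10 arrays was 0.743, against 0.967 and 2.29.

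**Figure D1:**
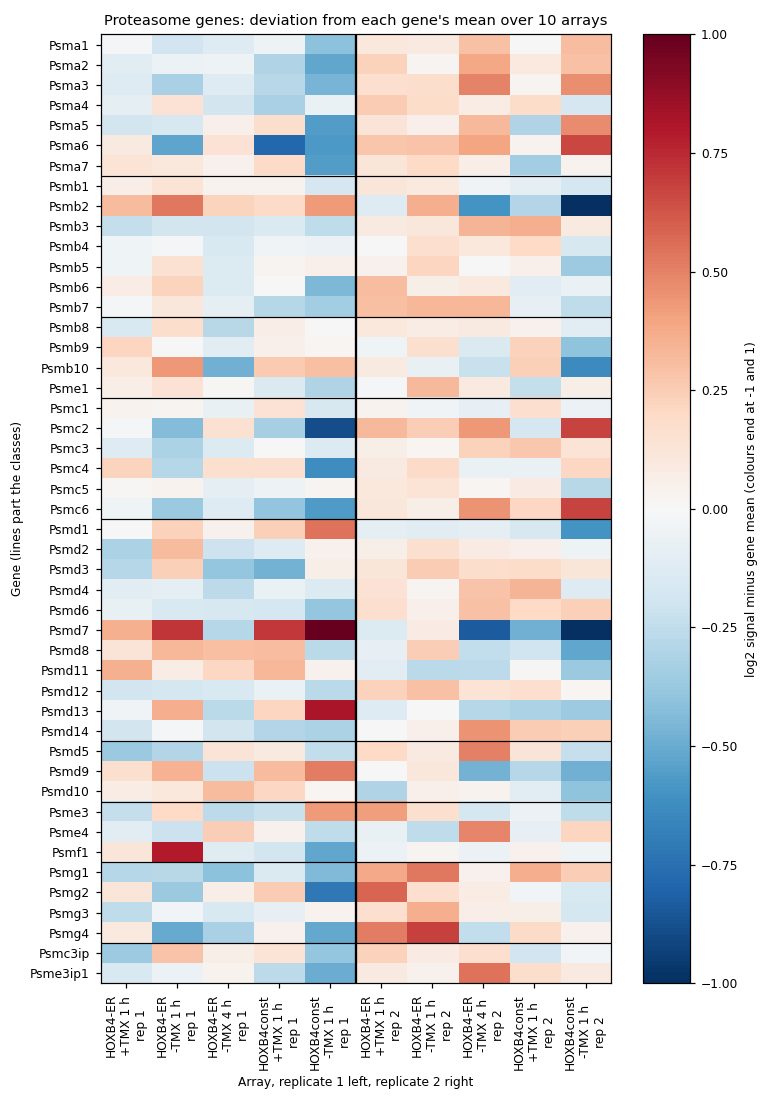
Deviation of each of 47 genes (rows, by class: alpha, beta, immune, ATPase, non-ATPase, base chaperones, other activators and inhibitor, core chaperones, no subunit) from its own mean over the 10 arrays, in log2 signal, with replicate 1 arrays left of the thick line and replicate 2 arrays right; the dim Psma8 and Psmb11 are left out and colours end at −1 and 1. Alpha, ATPase and core chaperone rows are mostly redder on the right, and Psmd7 and Psmb2 mostly bluer.

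The labelled cell type was set against markers. The LSK markers Kit (9.77), Cd34 (11.30), Gata2 (9.54) and Meis1 (7.77) were well above the array median, while 1 of 5 B cell and 1 of 6 erythroid markers reached it. Other lineages were not absent: 6 of 6 mast cell and basophil, 7 of 9 granulocyte, 4 of 6 megakaryocyte and 3 of 6 T and NK cell markers reached it too. Markers of monocytes and macrophages differed by replicate number in spite of the lineage-negative sort: their summed signal over 10 genes was 13.4 to 14.1 (log2) on the 5 replicate 1 arrays and 10.6 to 11.4 on the 5 replicate 2 arrays. The 9 dendritic and MHC class II markers summed to 9.31 to 12.4 and 7.99 to 8.43, and the 9 granulocyte markers, each lower on replicate 2 on average (median difference −2.25), to 11.8 to 13.9 and 11.4 to 13.2. The sums of both lists also differed by construct. The dendritic sums on replicate 1 were 12.2, 12.3 and 12.4 in HOXB4-ER but 9.31 and 9.40 in HOXB4const cells. Granulocyte sums on HOXB4const replicate 1 (12.1 with and 11.8 without TMX) lay below those on HOXB4-ER replicate 2 (12.9 to 13.2). A sum follows its brightest genes, here Mpo (mean 11.95) and Prtn3 (10.78). The median deviation of the 9 markers from their own means was −0.62 with and −0.58 without TMX on HOXB4const replicate 1. On HOXB4-ER replicate 2 it was −1.11 with TMX, −0.55 after 1 h and −1.71 after 4 h, so the list as a whole was not lower on HOXB4const replicate 1 throughout. The 6 LSK markers, with a median replicate difference of 0.58, did not move alike: Kit averaged 9.38 and 10.16 and Meis1 7.32 and 8.22 on replicates 1 and 2, and Flt3 7.64 and 6.48. The Gapdh control probe sets, which show RNA integrity by their 3′ minus 5′ difference, gave 0.738 to 1.42 on replicate 1 and 1.48 to 3.98 on replicate 2 arrays. The largest were 3.98 on HOXB4const without TMX and 3.47 on HOXB4-ER after 4 h, both replicate 2. HOXB4const with TMX replicate 2 gave 2.93. HOXB4-ER replicate 2 gave 1.74 with TMX and 1.48 after 1 h without it. The array HOXB4const without TMX replicate 1 stood apart, with an array median of 5.32 where the others lay at 3.96 to 4.71.

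The immune subunits were all measured well above the array median, in every group. Over the 10 arrays Psmb8, Psmb9 and Psme1 ranged over 0.46 to 0.63, and Psmb10 over 1.07, beside a median of 0.743 for the 45 genes. Psmb8, which replaces Psmb5, read 10.45 and 10.71 in HOXB4-ER cells with TMX (replicates 1 and 2), 10.79 and 10.68 after 1 h and 10.33 and 10.70 after 4 h without it, and 10.67 and 10.65 with and 10.60 and 10.49 without TMX in HOXB4const cells. The groups overlapped on withdrawal in HOXB4-ER cells, and the range over all 10 arrays was under 1. Psmb9, which replaces Psmb6, read 9.62 and 9.37, then 9.41 and 9.57, then 9.30 and 9.26 in HOXB4-ER cells in the same order, and 9.46 and 9.64 with and 9.43 and 9.01 without TMX in HOXB4const cells. Both 4 h arrays lay just below the others of HOXB4-ER, and both HOXB4const arrays without TMX lay below those with it. With 2 arrays a group, groups often part in this way by chance, so a lack of overlap describes the arrays and is not a test.

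Psmb10, which replaces Psmb7, varied most of the 4 immune genes. In HOXB4-ER cells it read 9.0 and 8.98 with TMX, 9.33 and 8.82 after 1 h, and 8.41 and 8.67 after 4 h without. In HOXB4const cells it read 9.16 and 9.13 with and 9.19 and 8.26 without TMX. The 4 h arrays did not overlap those with TMX, and the low HOXB4const value was 1 array of 2. That array had the largest Gapdh 3′ minus 5′ difference of the 10 (3.98), followed by the 4 h replicate 2 array (3.47). The part of RNA integrity in these values was not tested. Psme1, the activator subunit, read 11.21 and 11.12, 11.29 and 11.47, and 11.16 and 11.24 in HOXB4-ER cells, and 11.00 and 10.91, then 10.85 and 11.20 in HOXB4const cells. Its HOXB4-ER arrays after 1 h lay above those with TMX, and after 4 h they overlapped them.

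Against HOXB4-ER with TMX, the limma differences after 1 h were 0.15 ± 0.40 (standard error) for Psmb8, −0.00 ± 0.41 for Psmb9, 0.08 ± 0.48 for Psmb10 and 0.21 ± 0.40 for Psme1. After 4 h they were −0.07 ± 0.40, −0.21 ± 0.41, −0.45 ± 0.48 and 0.03 ± 0.40. None of these passed (limma adjusted p of 1 for each). In HOXB4const cells withdrawal gave −0.11, −0.33, −0.42 and 0.07, with the same standard errors and the same adjusted p. The 4 h and the 1 h differences share the arrays with TMX.

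**Figure D2:**
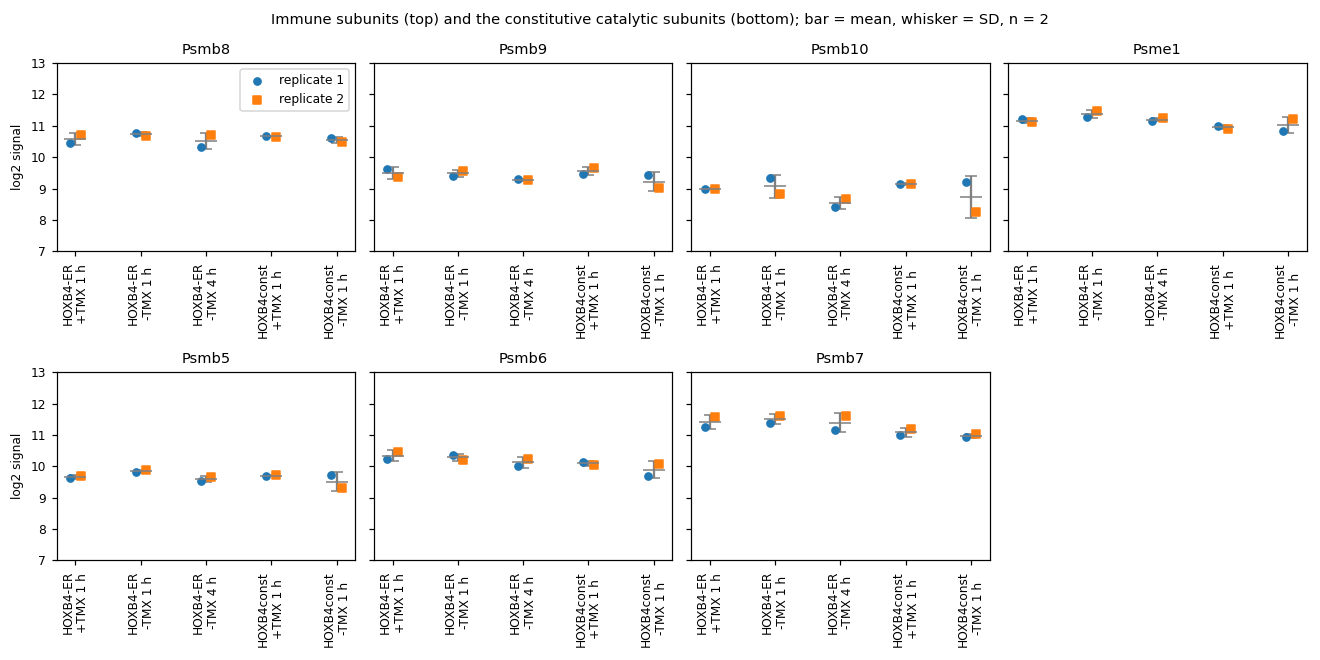
Log2 signal of the immune subunits Psmb8, Psmb9, Psmb10 and Psme1 (top) and of the constitutive proteolytic subunits Psmb5, Psmb6 and Psmb7 (bottom) in each of the 5 groups; points are arrays coloured by replicate number, bars are means and whiskers SD, n = 2. Psmb10 has its lowest values after 4 h without TMX in HOXB4-ER cells (8.41 and 8.67) and on 1 HOXB4const array without TMX (8.26), and the vertical axis does not start at 0.

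The constitutive proteolytic subunits gave a similar picture. Psmb5 lay between 9.30 and 9.88, Psmb6 between 9.70 and 10.45, and Psmb7 between 10.93 and 11.61 over the 10 arrays. Their differences after 4 h in HOXB4-ER cells were −0.06 ± 0.40, −0.22 ± 0.41 and −0.03 ± 0.42. Since levels of different probe sets cannot be compared, the RNA of each pair was followed as its change across arrays, centred on the mean of the 10. Exchange of the subunits themselves was not measured. Psmb8 minus Psmb5 stayed within −0.14 to 0.25, Psmb9 minus Psmb6 within −0.35 to 0.47 and Psmb10 minus Psmb7 within −0.56 to 0.65. For the last pair the group means were −0.05 and −0.05 in HOXB4-ER cells with TMX and after 1 h, −0.47 after 4 h, and 0.43 and 0.13 in HOXB4const cells with and without TMX. The replicates 1 and 2 behind them were 0.12 and −0.21, 0.32 and −0.41, and −0.38 and −0.56 in HOXB4-ER cells. In HOXB4const cells they were 0.55 and 0.32 with and 0.65 and −0.38 without TMX. Replicate 2 after 1 h thus lay between the 4 h arrays.

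Psmb8 and Psmb9 lie next to the peptide transporter genes Tap1 and Tap2, in the order Psmb9, Tap1, Psmb8, Tap2 in RefSeq (GRCm38.p6). Psmb9 and Tap1 start back to back and share the bases between them. These 225 bases are shown because Tap1 and Psmb9 were measured side by side here, and the 250 bases before the Psmb8 start because they hold the only TTCNNNGAA letters (the STAT binding pattern) among the immune subunits. In the stretch between Psmb9 and Tap1 (chr17:34187331-34187555, minus strand, read towards Psmb9) capitals mark a GGGCGG box and a CCAAT box on the other strand. In the Psmb8 stretch (chr17:34197945-34198194, plus strand) they mark TTCNNNGAA.
Psmb9 to Tap1: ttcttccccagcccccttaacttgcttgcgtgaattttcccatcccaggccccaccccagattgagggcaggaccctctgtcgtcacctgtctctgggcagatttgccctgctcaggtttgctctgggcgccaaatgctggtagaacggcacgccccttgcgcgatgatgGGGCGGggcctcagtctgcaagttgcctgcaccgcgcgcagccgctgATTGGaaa
Psmb8: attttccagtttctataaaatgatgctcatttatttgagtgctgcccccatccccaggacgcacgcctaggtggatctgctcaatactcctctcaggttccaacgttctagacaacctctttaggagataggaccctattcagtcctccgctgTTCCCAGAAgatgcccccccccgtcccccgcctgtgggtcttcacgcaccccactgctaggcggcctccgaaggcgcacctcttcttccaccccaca
Tap1 read 9.04 and 8.47 in HOXB4-ER cells with TMX, 8.93 and 8.83 after 1 h, and 9.24 and 9.25 after 4 h without it. In HOXB4const cells it read 8.65 and 8.78 with and 8.48 and 9.21 without TMX. Its 4 h difference was 0.49, where that of Psmb9 was −0.21, and neither passed (limma adjusted p of 1 for Psmb9).

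The question of the study was which genes respond when HOXB4 activity is withdrawn. After 1 h without TMX in HOXB4-ER cells, 0 of the 49 proteasome genes passed limma's test at an adjusted p under 0.05, as did 0 of all 45037 probe sets (0%), with 2145 probe sets at an unadjusted p under 0.05. At that unadjusted level 1 of the 49 was called, against 3.53% of the 18193 genes. It was the dim Psma8, which read 0.22 and 2.48 with TMX and 4.80 and 4.54 after 1 h (3.32 ± 0.98, limma adjusted p = 0.826). In HOXB4const cells Psma8 was higher without TMX too, at 3.88 and 1.88 with and 5.01 and 3.95 without it (1.60). Over the other 45 genes the median difference was 0.04, with 26 higher and 19 lower, beside a median of 0.07 and 55.2% higher over all genes. With each array centred on its median, which shifts all genes of an array alike, the 45 had a median of −0.35 and all genes −0.32. With quantile normalization these were 0.10 and −0.0059. The median of the 45 turned to −0.043 without HOXB4-ER with TMX replicate 1 and to −0.020 without 1 h replicate 2, and was 0.079 without 1 h replicate 1. Genes whose arrays did not overlap included Psmd2 (10.09 and 10.47 with TMX, 10.73 and 10.57 without, 0.37 ± 0.41) and Psmd3 (0.33 ± 0.46), subunits of the base and lid of the regulatory particle, and Psmb2 of the core (0.35 ± 0.61). Such a lack of overlap often arises by chance with 2 arrays a group, and its share over all genes was not counted. Psme4, which encodes the activator that opens the core without ubiquitin, differed by −0.15 ± 0.41, and the ATPase gene Psmc1 by −0.04 ± 0.38.

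After 4 h without TMX the proteasome genes as a class again lay near their level with TMX. Limma passed 0 of the 49 and 0 of 45037 probe sets (0%), with 1509 probe sets at an unadjusted p under 0.05. At that level 0 of the 49 were called, against 2.63% of genes. The median of the 45 was −0.03, with 19 higher and 26 lower, beside 0.02 and 51.7% higher over all genes. Leaving out 4 h replicate 1 gave 0.07, leaving out 4 h replicate 2 gave −0.14, and leaving out replicates 1 or 2 with TMX gave −0.084 or 0.038. By class, the alpha subunits had a median of 0.09 (5 of 7 higher), the beta subunits −0.06 (2 of 7 higher), the immune subunits −0.14 (1 of 4 higher), the ATPases −0.00 (3 of 6 higher) and the core assembly chaperones Psmg1 to Psmg4 −0.26 (0 of 4 higher). The alpha, beta, immune and core chaperone medians kept their sign under both other scalings.

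Psme4 had the largest positive difference after 4 h among genes without overlap. It read 9.03 and 9.07 with TMX, 8.92 and 8.88 after 1 h, and 9.39 and 9.62 after 4 h in HOXB4-ER cells, so the 4 h arrays were the highest of the construct. Its difference was 0.46 ± 0.41 against TMX and 0.60 ± 0.41 against 1 h without TMX (limma adjusted p of 1 and 0.952). HOXB4const cells read 9.18 and 9.06 with and 8.88 and 9.35 without TMX. The other bright probe set of Psme4 gave 0.16 after 4 h. The lid gene Psmd7 had the largest negative difference, reading 8.52 and 8.03 with TMX, 8.88 and 8.25 after 1 h and 7.88 and 7.33 after 4 h (−0.67 ± 0.81). Psmg4, a chaperone that helps build the alpha ring, followed with 7.75 and 8.17 against 7.34 and 7.41 (−0.59 ± 0.53), and then Psmb10. None of these passed.

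From 1 h to 4 h without TMX, limma passed 0 of the 49 genes and 0 of 45037 probe sets (0%, 2558 at an unadjusted p under 0.05), and 0 of the 49 were called at the unadjusted level, against 4.4% of genes. The median of the 45 was −0.10 (18 higher, 27 lower), beside −0.06 over all genes, and with arrays centred on their median 0.31 beside 0.36. It ran from −0.19 without 4 h replicate 2 to −0.014 without 1 h replicate 2. All 4 immune subunits were lower, with differences of −0.18 to −0.53 and a median of −0.22 as deposited, beside −0.06 for all genes. With quantile normalization it was −0.27, beside 0.046, and with centred arrays 0.20 (3 of 4 higher), beside 0.36. Psmd5, a chaperone of the ATPase ring, had 0.42 ± 0.44 and the alpha subunit Psma5 0.24 ± 0.50. At the other end were Psmd7 (−0.96 ± 0.81), Psmb2 (−0.63 ± 0.61) and the chaperone gene Psmd9 (−0.57 ± 0.50).

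In HOXB4const cells, where TMX should not change HOXB4 activity, 0 of the 49 passed limma's test after 1 h without TMX and 0 of 45037 probe sets did (0%, 1956 at an unadjusted p under 0.05). At the unadjusted level 0 of the 49 were called, against 3.66% of genes. Here 34 of the 45 genes were lower and 11 higher, with a median of −0.14, beside 0.02 and 52.1% higher over all genes. All 7 beta subunits were lower (median −0.19, between −0.26 and −0.12), also with quantile normalization (−0.15). Centring arrays gave −0.50, but it lowers every gene in this comparison alike (44 of the 45 and 12213 of 18193 genes were lower with it). Its sign therefore adds nothing on the beta subunits. The 4 core assembly chaperones were lower (median −0.28, with 1 of 4 higher after quantile normalization). The median of the 45 was −0.45 with arrays centred on their median, beside −0.28 for all genes, and −0.10 with quantile normalization, beside −0.020. It was −0.24 without HOXB4const without TMX replicate 2, and −0.074 without replicate 1 of that group or without HOXB4const with TMX replicate 2. The comparison holds the array that stood apart, on which the 45 genes lay at a median of −0.24 from their means. It also holds the array with the largest Gapdh 3′ minus 5′ difference (3.98, without TMX replicate 2). Psmg2, another chaperone of the alpha ring, read 9.07 and 8.80 with and 8.11 and 8.67 without TMX (−0.54 ± 0.46), Psmd8 of the lid gave −0.45 ± 0.44 and Psmg4 −0.35 ± 0.53.

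The difference between the 2 constructs in their response over 1 h was tested directly. Limma passed 0 of the 49 and 0 of 45037 probe sets (0%, 1698 at an unadjusted p under 0.05), and 0 of the 49 at the unadjusted level, against 3.05% of genes. The median of the 45 was 0.16 (34 higher, 11 lower) beside 0.02 over all genes, and it was 0.05 without HOXB4-ER with TMX replicate 1 and 0.24 without HOXB4const without TMX replicate 2. Between the constructs with TMX, HOXB4-ER minus HOXB4const, limma also passed 0 of the 49 and 0 of 45037 probe sets (0%, 1972 at an unadjusted p under 0.05). At the unadjusted level 0 of the 49 were called, against 3.63% of genes. The median was 0.03, beside −0.10 over all genes, and 0.45 with arrays centred on their median, beside 0.32. It ran from −0.0092 without HOXB4-ER with TMX replicate 2 to 0.089 without replicate 1 of that group. Psma6 of the alpha ring read 11.53 and 11.72 in HOXB4-ER and 10.65 and 11.47 in HOXB4const cells (0.56 ± 0.60). The ATPase gene Psmc2 gave 0.41 ± 0.60, Psmb7 0.32 ± 0.42, Psmb10 −0.15 ± 0.48 and Psmc1 −0.12 ± 0.38.

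**Figure D3:**
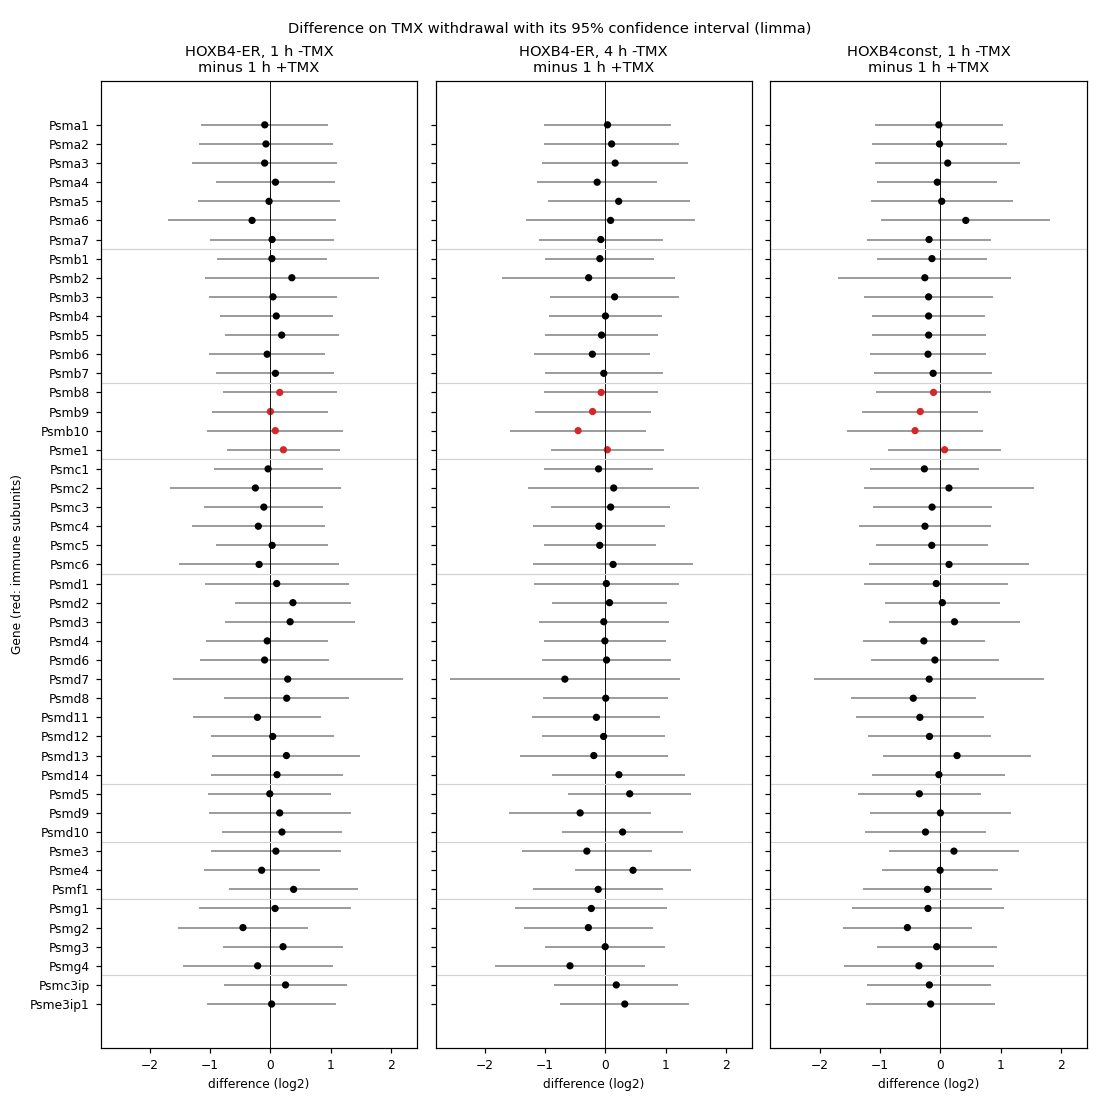
Difference in log2 signal on TMX withdrawal (points) with its 95% confidence interval from limma (lines) for 47 genes, in HOXB4-ER cells after 1 h (left) and 4 h (middle) and HOXB4const cells after 1 h (right); immune subunits are red and horizontal lines part the classes. All intervals shown span 0, with a median reach of 1.06 to either side.

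The width of the intervals depends on the fit. In the main fit the 95% interval of a difference reached a median of 1.06 to either side for the 45 genes, against 1.60 for all genes. That fit gives every probe set a common prior spread, which dim, noisy probe sets raise. With a prior that follows the signal level (limma's trend and robust moderation) the median reach was 0.712 for the 45 and 1.61 for all genes. With it, the interval lay wholly within a 2-fold change for 33 of the 45 genes after 1 h in HOXB4-ER cells (18.4% of all genes), 32 after 4 h (18.2%), 28 from 1 h to 4 h (14.2%), 30 in HOXB4const cells (19.4%) and 40 between the constructs with TMX (19.4%). Most of the 45 are bright, while all genes include many dim ones with wide intervals. These shares, and those below, therefore do not set the 45 apart from other bright genes, for which the share was not counted. Of the immune subunits, Psmb8, Psmb9 and Psme1 were within 2-fold in all 5 of these comparisons. Psmb10 was so after 1 h in HOXB4-ER cells and between the constructs only, and its interval after 4 h ran from −1.22 to 0.32. Since same-numbered arrays deviated together, the level-dependent prior was also used with the replicate number as a block, an alternative chosen after seeing the data. The median reach for the 45 then was 0.484, and 0 of the 49 passed in any group comparison. The intervals within 2-fold became 42 of the 45 after 1 h in HOXB4-ER cells (30.5% of all genes), 41 after 4 h (29.4%), 36 from 1 h to 4 h (24.9%), 42 in HOXB4const cells (31.7%), 43 between the constructs (30.4%) and 30 for the difference in response (13.1%). Psmb10 ran from −1.05 to 0.14 after 4 h, and Psme4 from −0.045 to 0.96. At an unadjusted p under 0.05 this fit called 3 of the 45 from 1 h to 4 h (7.97% of genes), named after their values were seen: Psmd7, Psme4 and Psmb2, with limma adjusted p between 0.523 and 0.592. It called Psmd8 for the difference in response (2.6% of genes) and Psma6 between the constructs (3.88%), both with a limma adjusted p of 1. For HOXB4-ER it called 0 of the 45 after 1 h (3.5%) and 0 after 4 h (3.55%), and for HOXB4const 0 (3.4%). Changes within the intervals were not detectable.

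The arrays were also compared by replicate number, which puts 5 arrays against 5. Replicate 2 minus replicate 1, with the group as a term, passed 0 of the 49 and 0 of 45037 probe sets (0%) in the main fit, with 6152 probe sets at an unadjusted p under 0.05. At the unadjusted level 3 of the 49 were called, against 12.1% of genes: Psma6, Psmg1 and Psmd7. Of the 49 genes, 18 were higher on the replicate 2 array in all 5 groups (10.9% of genes) and 8 lower in all 5 (8.98% of genes). Of the 45 bright genes, 17 were higher in all 5 as deposited and 6 with quantile normalization, and 8 were lower in all 5 as deposited and 1 with centred arrays. Over the alternatives that kept all 5 groups the counts ran from 6 to 17 and from 1 to 9. These scalings move all genes, to a median of 0.13 with quantile normalization and 0.29 with centred arrays, from −0.03 as deposited. The shares over all genes were not counted under them. With the prior that follows the signal level, 2706 of 45037 probe sets passed. Of the 45 genes, 4 passed as higher on replicate 2 (3.66% of genes) and 2 as lower (3.34% of genes). All genes include many dim ones with a wide spread, while the 45 are mostly bright and vary little. The shares in this paragraph therefore do not set the proteasome genes apart from other bright genes, for which they were not counted.

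Psmg1, a chaperone of the alpha ring, read 8.92, 8.92, 8.79, 9.05 and 8.76 on the replicate 1 arrays (HOXB4-ER with TMX, 1 h and 4 h without, HOXB4const with and without TMX). On replicate 2 it read 9.58, 9.73, 9.24, 9.56 and 9.45. There was no overlap between the 2 numbers (0.62 ± 0.21, limma adjusted p = 0.311, and 0.0156 with the level-dependent prior). Psma3 read 11.37, 11.17, 11.37, 11.22 and 11.03 on replicate 1 and 11.66, 11.67, 11.99, 11.52 and 11.96 on replicate 2. It did not overlap either (0.53, adjusted p = 0.0266 with the level-dependent prior).

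The ATPase gene Psmc6 read 10.43, 10.10, 10.35, 10.08 and 9.90 on replicate 1, and 10.58, 10.53, 10.92, 10.68 and 11.15 on replicate 2 (0.60, adjusted p = 0.0308 with the level-dependent prior). Psma6 read 11.53, 10.91, 11.58, 10.65 and 10.86, and 11.72, 11.73, 11.84, 11.47 and 12.11 (0.66 ± 0.26, adjusted p = 0.0177 with that prior). Psmc6 did not overlap between the numbers, while Psma6 was higher in each group but overlapped over all arrays. The other probe sets of Psma6 gave 0.20, 0.27 and −1.29, those of Psmc6 0.39 and 0.10, and the dim one of Psma3 −1.50, so the size, and for Psma6 and Psma3 the direction, depends on the probe set.

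In the other direction, Psmd7 read 8.52, 8.88, 7.88, 8.87 and 9.21 on replicate 1 and 8.03, 8.25, 7.33, 7.69 and 6.98 on replicate 2 (−1.02 ± 0.34, limma adjusted p = 0.303, and 0.0125 with the level-dependent prior). The pair that differed most was HOXB4const without TMX, with Gapdh 3′ minus 5′ differences of 1.28 on replicate 1 and 3.98 on replicate 2. The other 2 Psmd7 probe sets gave −0.05 and −0.03. Psmb2, a core subunit, read 9.71, 9.92, 9.62, 9.58 and 9.82, and 9.27, 9.76, 8.80, 9.10 and 8.35 (−0.67 ± 0.28, adjusted p = 0.0314 with that prior), and has 1 probe set. Both were lower in each of the 5 groups, and the arrays of the 2 numbers overlapped for both.

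By class, all 7 alpha subunits were higher on replicate 2 on average (median 0.32, between 0.03 and 0.66), 4 of them in all 5 groups. All genes had −0.03. After quantile normalization 6 of the 7 were higher, with a median of 0.08, below the 0.13 of all genes, and with centred arrays the alpha median was 0.64, beside 0.29. All 6 ATPases were higher on average (median 0.21), which with quantile normalization became 3 higher and 3 lower. The 4 core assembly chaperones were all higher as deposited (median 0.37, and 0.37 with quantile normalization). The 11 non-ATPase subunits split: Psmd3, Psmd4, Psmd6, Psmd12 and Psmd14 were higher in all 5 groups and Psmd1, Psmd7, Psmd8, Psmd11 and Psmd13 lower in all 5, a split named after its values were seen and partly tied to the probe set, since the other Psmd4 probe sets gave −1.04 and −2.05 where the brightest gave 0.27. The chaperone gene Psmd9 was lower (−0.45 ± 0.24) and the ATPase gene Psmc2 higher (0.60 ± 0.29), neither past the threshold.

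The immune subunits differed little between the replicate numbers. Psmb8 gave 0.08 ± 0.22, Psmb9 −0.08 ± 0.23, Psmb10 −0.25 ± 0.27 and Psme1 0.09 ± 0.22, with limma adjusted p between 0.732 and 0.909, and none kept its sign in all 5 groups. Their median was 0.00 as deposited, −0.17 with quantile normalization and 0.32 with centred arrays, beside −0.03, 0.13 and 0.29 for all genes. This was measured across arrays on which the summed signal of monocyte and macrophage markers differed between 13.4 to 14.1 and 10.6 to 11.4 (log2). In bulk RNA, fewer cells of a type and less RNA per cell cannot be told apart. The part of these markers, and of the Gapdh 3′ minus 5′ difference, in the replicate differences of the other proteasome genes was not tested.

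**Figure D4:**
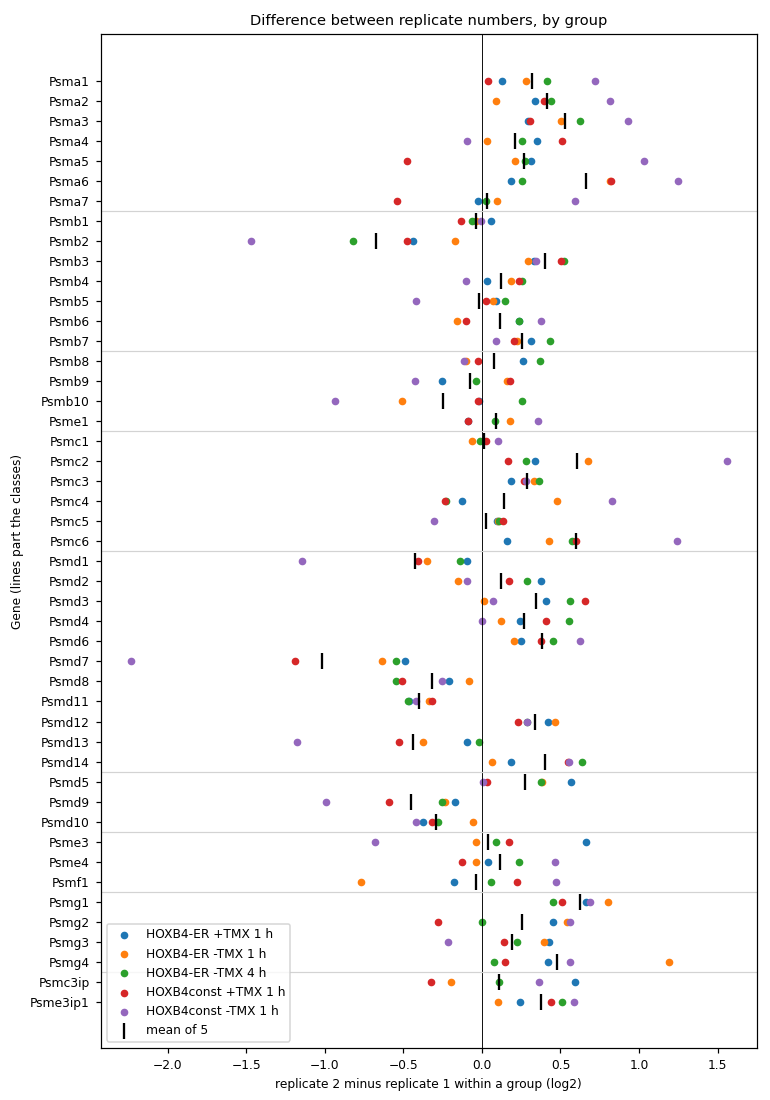
Replicate 2 minus replicate 1 (log2 signal) for 47 genes, 1 point for each of the 5 groups and a black bar for their mean; horizontal lines part the classes. Points of Psmg1, Psma3 and Psmc6 all lie right of 0, those of Psmd7 and Psmb2 all left, and those of the immune subunits on both sides; HOXB4const without TMX often gives the point farthest out.

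Genes that work beside the proteasome were read as 3 lists. Of 36 entries of partners (ubiquitin receptors, deubiquitinases, shuttle and assembly factors and the transcription factors Nfe2l1 and Nfe2l2), 24 were measured, as were 12 of 12 MHC class I genes and 16 of 18 interferon genes. None passed limma's test in any of the 7 comparisons, and in the withdrawal comparisons 0 were at an unadjusted p under 0.05. Nfe2l1, which drives proteasome genes when proteasome activity fails, gave −0.16 after 1 h and −0.18 after 4 h in HOXB4-ER cells, while HOXB4const cells gave −0.09. Nfe2l2, the oxidative stress regulator, read 8.94 and 8.74 with TMX, 8.83 and 8.69 after 1 h and 9.83 and 9.50 after 4 h in HOXB4-ER cells, and 9.04 and 8.94 with and 8.64 and 9.24 without TMX in HOXB4const cells. Its 4 h arrays lay above all others (0.82 ± 0.43), without passing. Next by p-value in the partner list after 4 h, neither past the threshold, were the proteasome-binding zinc finger gene Zfand5 (0.38) and the proteasome import factor gene Akirin2 (0.32). In the MHC class I list Tapbpl, Tap1 and Calr had the smallest p after 4 h (0.75, 0.49 and −0.27), and in the interferon list Iigp1, Irf1 and Irf2 (−0.84, 0.84 and 0.61).

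The known binding letters of these factors were looked up in the 250 bases before the gene starts in RefSeq (GRCm38.p6), which were at hand for 41 of the 49 genes. The antioxidant response element core, searched as TGACNNNGC on both strands, occurred for 5 of the 41 (12.2%), against 10.2% of all 32851 windows. Those stretches are shown because they are the ones to set beside Nfe2l1 and Nfe2l2, with the element in capitals, or its reverse complement where it lies on the other strand.
Psmb5, chr14:54618024-54618052, minus strand: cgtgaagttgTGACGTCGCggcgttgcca
Psmb6, chr11:70525338-70525356, plus strand: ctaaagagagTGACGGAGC
Psmc6, chr14:45329587-45329615, plus strand: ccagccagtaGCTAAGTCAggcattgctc
Psmd12, chr11:107479278-107479299, plus strand: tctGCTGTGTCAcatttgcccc
Psmd9, chr5:123228149-123228177, plus strand: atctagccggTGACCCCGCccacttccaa
After 4 h without TMX these genes differed by −0.06 (Psmb5), −0.22 (Psmb6), 0.13 (Psmc6), −0.03 (Psmd12) and −0.42 (Psmd9). In Psmd9 the letters overlap a GGGCGG box on the other strand. The letters GAAA, any 2 bases and GAAA, a pattern of interferon-stimulated response elements, occurred for 3 of the 41 (7.32%, against 2.98% of windows), namely Psmb3, Psmd4 and Psmd9. TTCNNNGAA occurred for 2 (4.88%, against 7.02%), Psmb8 and Psmg1. CCAAT occurred for 16 (39.0%, against 33.8%) and GGGCGG for 22 (53.7%, against 32.7%). For all 5 patterns a gene counted if any of its windows matched, and 3 of the 41 genes had over 1 window. The percentages of all windows count each window singly, so the 2 shares are not fully alike. A match is a run of letters and not a measured site.

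Between replicate numbers, partner genes at an unadjusted p under 0.05 were Uchl5, a deubiquitinase of the regulatory particle (0.76 ± 0.22), and Zfand2a, which encodes a stress-induced proteasome partner (−1.25 ± 0.25). Zfand2a read 8.21, 7.84, 8.52, 7.97 and 7.77 on replicate 1 and 6.75, 7.08, 6.75, 6.84 and 6.63 on replicate 2, with no overlap (limma adjusted p = 0.177). The shuttle factor gene Ubqln4 followed (0.47). In the MHC class I list Tapbp, the peptide-loading factor tapasin, was the only 1 of 12 at that level (−0.69 ± 0.24), followed by Erap1 (0.58) and Pdia3 (−0.40), and Tap1 gave 0.04. The 2 of 24 partners and 1 of 12 MHC class I genes at that level are to be read against 12.1% of all genes.

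The interferon list had 1 gene higher and 6 lower at an unadjusted p under 0.05 of 16, against 12.1% of genes in both directions together. Irf8, a transcription factor of monocytes and dendritic cells, read 8.10, 8.50, 9.52, 7.05 and 6.98 on replicate 1 and 4.62, 4.74, 5.41, 5.34 and 4.69 on replicate 2 (−3.07 ± 0.43). Ifit3 was lower by the same size (−3.07 ± 0.37) and Ifngr1, a receptor subunit for interferon gamma, by less (−1.12). Irf1, which switches on immunoproteasome genes, gave −0.87 ± 0.27. None passed (smallest limma adjusted p = 0.144). Irf2, a repressor of interferon targets, was the gene higher at the unadjusted level (0.71 ± 0.25). Over the 16 genes the median was −0.47, with 4 higher.

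**Figure D5:**
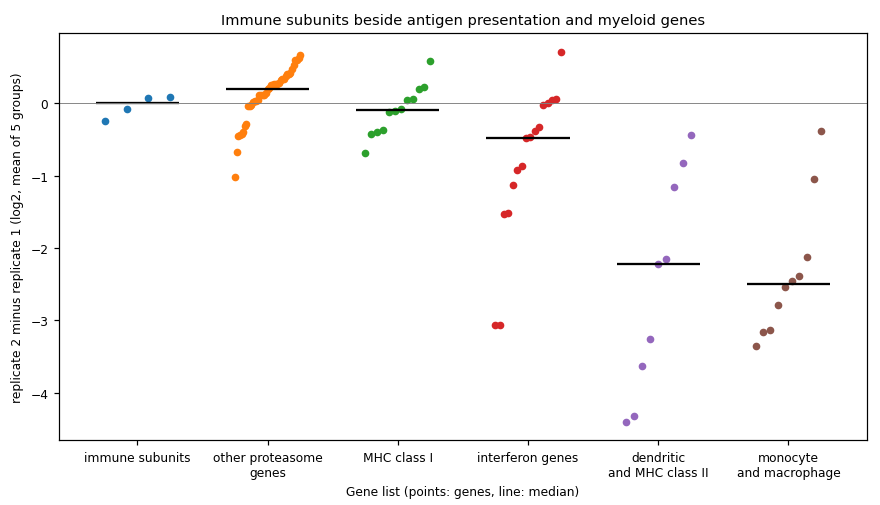
Replicate 2 minus replicate 1, as the mean over 5 groups in log2 signal, for the 4 immune subunits, the other proteasome genes, the MHC class I and interferon lists, and markers of dendritic cells with MHC class II and of monocytes and macrophages; each point is a gene and each line a median. The immune subunits lie at −0.25 to 0.09, while the marker lists have medians of −2.22 and −2.50.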

How the data were processed

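RNA was measured on 10 Affymetrix whole-genome mouse arrays after linear T7 amplification of 0.7 to 1 µg, per the labels' protocols. The deposited values are log2 signals, 1 for each probe set. GCOS and RMA stand in the submitters' processing notes, with no role given. Back on the linear scale, the mean of each array was 100 once 2% of values had been trimmed from each end, as with GCOS global scaling, so the values were not normalized again. The sources used here do not give background correction, batches or scan dates.

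Of 45101 probe sets, 64 controls were left out. Limma 3.58.1 in R 4.3.3 fitted 5 group means over 10 arrays (5 residual and 2.21 prior degrees of freedom), with two-sided tests and Benjamini-Hochberg adjustment over 45037 probe sets. The replicate comparison added a term for the replicate number (4 residual and 1.82 prior degrees of freedom). The threshold was an adjusted p under 0.05. The number of arrays limits the precision. Errors are limma's standard errors unless given as SD. Same-numbered arrays deviated together between groups in 10 of 10 pairs of groups (correlation 0.210 to 0.527 over 22519 brighter probe sets), and populations were divided between treatments, per the labels.

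Members and lists were chosen with earlier results of these data known. Named genes are the immune, proteolytic and tissue-restricted subunits, members past the threshold, up to 3 highest and lowest differences without overlap in each comparison, the 3 smallest p of each list between replicates and after 4 h, and always Nfe2l1, Nfe2l2, Tap1 and Irf1. Alternatives were 2 other scalings, brighter probe sets only, another moderation, averaging a gene's probe sets, a replicate block, alone or with that moderation, arrays of the compared groups only, other arrays or no group term for the replicate comparison, and leaving out each array.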

Additional observations from a re-analysis of the deposited data

Results flagged for a closer look

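Within the 5 arrays of a replicate number, 1 array lay far from the other 4 for 4 of 98 sets of 5. Chance gives about 1 in 20, so this is no more than chance gives. Each set holds 1 array of each of the 5 groups. The 4 are listed as a description. The alpha subunit gene Psma7 read 9.45 on HOXB4const without TMX replicate 1, and the nearest other replicate 1 array read 10.05. The same group's replicate 2 array was lowest for the ATPase gene Psmc5, at 9.33 with the nearest at 9.62, and for the base subunit gene Psmd1, at 9.28 with the nearest at 9.72. That replicate 2 array had the largest Gapdh 3′ minus 5′ difference (3.98). Psme3ip1, which encodes no subunit, read 9.62 on HOXB4-ER without TMX 4 h replicate 2, and the nearest read 9.24.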

How the results depend on the processing

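With the replicate number as a replicate block, 0 probe sets and 0 proteasome genes passed in each of the 6 group comparisons, as without it, so the block changed no call. With trend and robust moderation added to the block, chosen after seeing the data, 4 probe sets passed after 4 h, 5 from 1 h to 4 h and 10 between the constructs. No group comparison passed a proteasome gene under any alternative run, and 1 probe set passed between the constructs with TMX under trend and robust moderation alone. Centring arrays on their median shifts all genes alike. With it the median over the 45 genes was −0.35 after 1 h, 0.31 from 1 h to 4 h, −0.45 in HOXB4const cells, 0.45 between the constructs and 0.44 between replicate numbers, beside −0.32, 0.36, −0.28, 0.32 and 0.29 for all genes. Quantile normalization gave 0.016 between replicate numbers, beside 0.13 for all genes. Leaving out 1 array gave −0.043 to 0.079 after 1 h, −0.14 to 0.074 after 4 h, −0.24 to −0.074 in HOXB4const cells and 0.055 to 0.24 for the difference between the constructs. Between replicate numbers, 850 probe sets passed among the brighter ones only, 2706 (with 6 proteasome genes) under trend and robust moderation and 343 with no group term. The 17 of 45 genes higher on replicate 2 in all 5 groups became 6 with quantile normalization. Without the HOXB4const without TMX pair, an alternative chosen after seeing the data, 22 were higher in all remaining groups. With fewer groups to share a sign such a count can only stay or rise, so nothing is drawn from the rise. The 8 lower in all 5 became 1 with centred arrays. The shares over all genes were not counted for these alternatives. The cause was not tested. For single genes, 1287 recomputed values kept their direction and side of the threshold or stayed within the spread, 89 moved by more, and 3 newly passed. With 2 arrays a group, small changes were not detectable.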
